A study of Mus musculus with 9 samples.

Results

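The genes described here are 10 interferon-stimulated genes: the ISG15 conjugation pathway (Isg15, Uba7, Ube2l6 and Usp18) and antiviral effectors (Rsad2, Cmpk2, Mx1, Mx2, Bst2 and Isg20). They were taken by symbol from the 23337 genes of the count tables, and all 10 were among the 12553 genes that passed the filter on low counts. CD11b+ myeloid cells were obtained by positive selection from the bone marrow of 9 male C57BL/6 mice that were 3 to 6 weeks old when obtained, and 1 RNA-seq library was made per mouse. The PBS group (n = 3) received PBS by tail vein on days 1, 3 and 5. The EnzR EV group (n = 3) received, on the same days, extracellular vesicles from CWR-R1, a human prostate cancer cell line made resistant to enzalutamide, at 10 µg of EV protein in 100 µl. The EnzR EV + HDL NP group (n = 3) received these EVs and, on days 0, 2 and 4, high-density lipoprotein-like nanoparticles, which carry apolipoprotein A-1 and phospholipids on a gold core. The latter group was thus injected 6 times and the others 3 times, so the HDL NPs and the added injections cannot be told apart. None of the 9 libraries came from mice given HDL NPs alone or EVs of another source, so what is particular to EnzR EVs among EVs was not measured. Marrow was taken 24 h after the last injection.

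Type I interferons bind a receptor that activates transcription factors, which bind interferon-stimulated response elements in the promoters of its target genes. ISG15, a ubiquitin-like protein, is one of the most strongly induced products: UBA7 activates it, UBE2L6 carries it, an E3 ligase (HERC6 in the mouse) attaches it to proteins, and USP18 removes it again. USP18 also binds the receptor chain IFNAR2 and damps interferon signaling. Myeloid cells carry a basal level of these transcripts without infection, and the effectors encoded beside them act on viral RNA synthesis, on nucleotides, on capsids and on budding particles.

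Total counts lay between 2575776 and 18110561 per library, and 3 counts, used here as a floor, corresponded to between 0.160 and 1.65 CPM after TMM scaling (counts scaled to the library total after edgeR's correction for composition, the unit used below; floors cover counting error only). Rn45s, the ribosomal RNA precursor, took 42.7% of EnzR EV replicate 1, 20.3% of PBS replicate 1 and 14.2% of EnzR EV replicate 3, and 0.657% to 2.87% of the other 6 libraries. Replicates 1 of PBS and of EnzR EVs were also the smallest libraries (6006087 and 2575776 counts), and values given without both rest on the 2 PBS and 2 EnzR EV libraries that remain. Itgam, which encodes CD11b, was present in every library at 1389 to 2006 CPM.

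The start regions of the members were read first, because these genes are defined by a shared response. RefSeq promoter windows (GRCm38.p6, 250 bases before to 50 after the start) were at hand for 7 members: Isg15, Uba7, Ube2l6, Rsad2, Cmpk2, Bst2 and Isg20, the latter with 3 windows. Windows were searched on both strands for GAAANNGAAA, the core of the interferon-stimulated response element. Isg15, Rsad2 and Bst2 held it (3 of 7 members, 42.9%), against 1131 of all 32851 windows (3.44%) and 338 of the 8932 tested genes with a window (3.78%). The stretches are shown on the gene's own strand, with the 25 bases on each side and the matched bases in capitals.
Isg15, chr4:156200850-156200921, minus strand: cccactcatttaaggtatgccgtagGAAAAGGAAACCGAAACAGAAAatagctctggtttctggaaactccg
Rsad2, chr12:26456538-26456597, minus strand: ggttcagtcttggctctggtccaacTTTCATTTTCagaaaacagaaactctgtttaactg
Bst2, chr8:71537562-71537627, minus strand: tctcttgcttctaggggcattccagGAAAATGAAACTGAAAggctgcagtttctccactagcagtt
In Isg15, 3 overlapping matches formed a tract of 22 bases that ended 56 bases before the start. Bst2 held 2 overlapping matches over 16 bases, 114 bases before the start. In Rsad2 a single match stood in the reverse orientation, 110 bases before the start. The windows of Uba7, Ube2l6, Cmpk2 and Isg20 held no match, which says only that these letters are not in those windows.

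By the GENCODE M21 annotation on GRCm38, Rsad2 (chr12:26442746-26456452, minus strand) and Cmpk2 (chr12:26469204-26479837, plus strand) are neighbors that are transcribed away from each other, with starts 12752 bases apart and 0 annotated genes between them. Mx1 (chr16:97447035-97462907, minus strand) and Mx2 (chr16:97535308-97560900, plus strand) lie 72.4 kb apart with 4 genes between them. The others are on separate chromosomes: Isg15 at chr4:156199424-156200818, Usp18 at chr6:121245906-121270917, Uba7 at chr9:107975505-107984060, Ube2l6 at chr2:84798828-84810335, Bst2 at chr8:71534255-71537456 and Isg20 at chr7:78913424-78920396. Exons of Usp18 overlap those of Gm44148, on the opposite strand, over 124 bases, and exons of Uba7 overlap those of Gm20661, on the same strand, over 132 bases. Whether the counting used strand is not given in the sources used here, so reads in these bases may belong to either gene. Of all 75-base stretches of its exons, Mx1 shared 1.71% with another gene, Mx2 2.01%, Usp18 1.92%, Uba7 2.08%, Ube2l6 3.22% and each of the other 5 members 0%.

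The plot of CPM by mouse shows each member in all 9 libraries. Isg15, the ubiquitin-like modifier itself, was at 12.5, 6.38 and 4.52 CPM in PBS replicates 1 to 3, at 11.5, 18.4 and 20.9 CPM with EnzR EVs, and at 10.9, 9.30 and 19.0 CPM with EnzR EVs + HDL NPs. The groups overlapped, because PBS replicate 1 exceeded the lowest library with EnzR EVs and 2 of the 3 with EnzR EVs + HDL NPs. Group means were 7.80 ± 4.17, 17.0 ± 4.87 and 13.1 ± 5.21 CPM (SD, n = 3 each). The log2 fold change was 1.22 (SE 0.41) for EnzR EVs against PBS, where edgeR's quasi-likelihood test gave an unadjusted p of 0.0131 and a Benjamini-Hochberg adjusted p of 0.928. Against PBS, EnzR EVs + HDL NPs gave 0.80 (SE 0.40), with an adjusted p of 1.00 in the same edgeR test. Without the 2 smallest libraries both EV-treated groups lay above PBS for Isg15, and the log2 fold changes were 1.85 (SE 0.33; 3.61-fold; unadjusted p = 1.74e-04, adjusted p = 0.129 by edgeR) and 1.25 (SE 0.31; adjusted p = 0.570).

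**Figure D1:**
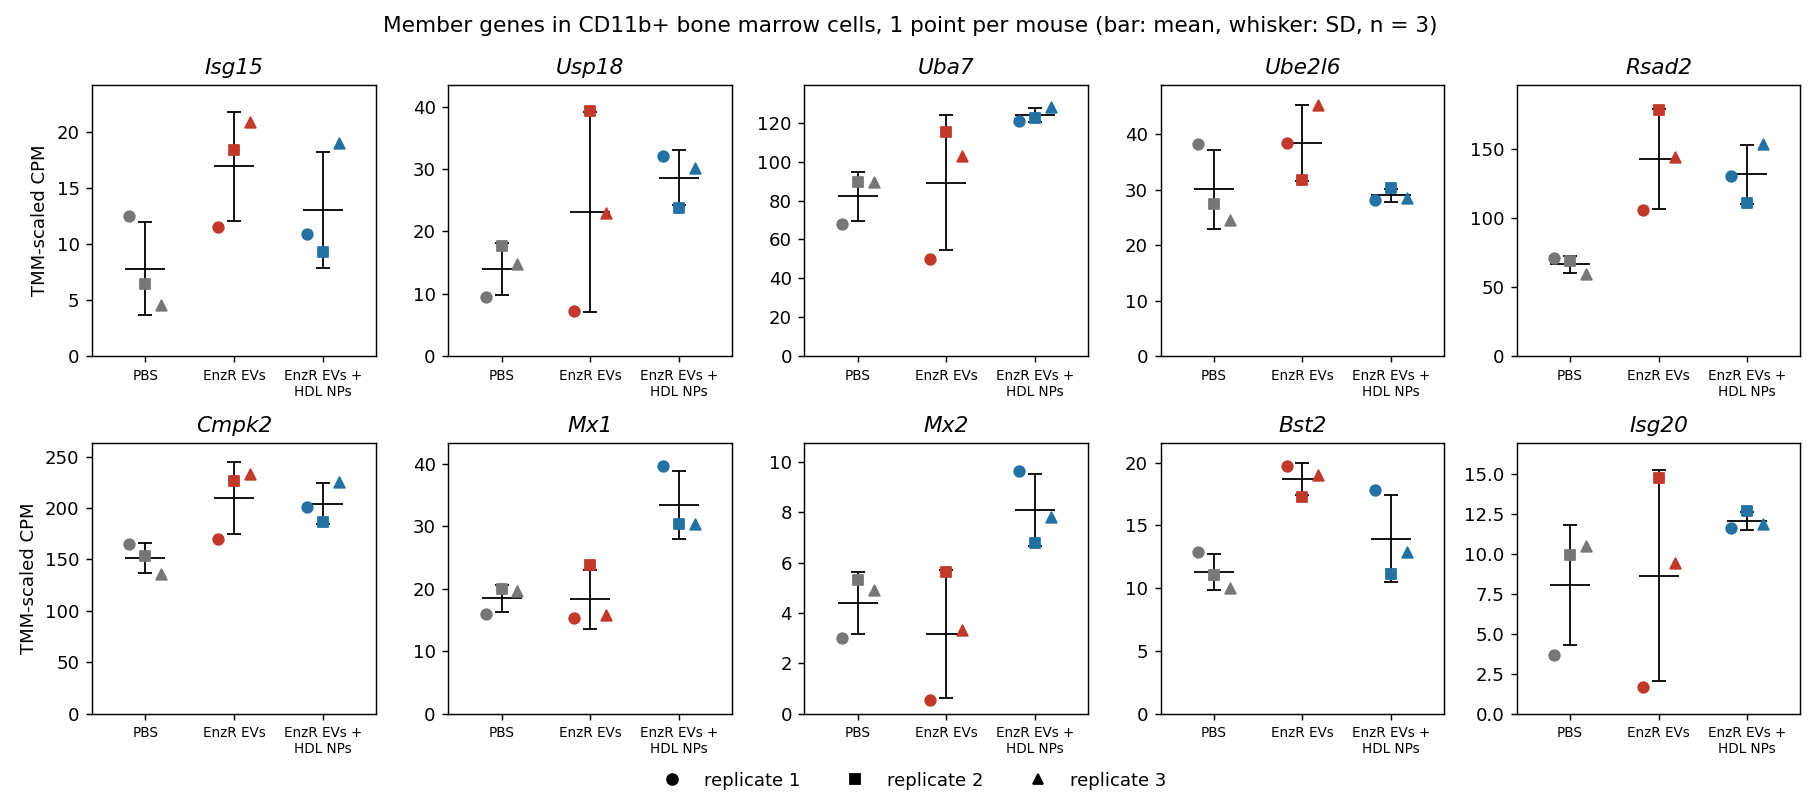
Each panel plots the TMM-scaled CPM of 1 member (linear axis from 0) in the 3 groups, with 1 point per mouse, the mean as a horizontal bar and the SD as whiskers. The 6 libraries of EV-treated mice lie above the 3 PBS libraries for Rsad2 (105 CPM or more against 70.9 or less) and Cmpk2, whereas Mx1 and Mx2 are highest in the EnzR EV + HDL NP mice.

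Usp18, which removes ISG15 from its targets, was at 9.50, 17.6 and 14.8 CPM in PBS mice, at 7.13, 39.2 and 22.9 CPM with EnzR EVs, and at 32.0, 23.7 and 30.1 CPM with EnzR EVs + HDL NPs. All 3 libraries with HDL NPs lay above the PBS libraries, while those with EnzR EVs alone held both the lowest and the highest value of the gene. Its log2 fold change against PBS was 0.80 (SE 0.43) for EnzR EVs and 1.02 (SE 0.43) for EnzR EVs + HDL NPs, with unadjusted p-values of 0.0938 and 0.0380 by edgeR. For Usp18 without the 2 smallest libraries these were 0.96 (SE 0.25) and 0.82 (SE 0.23), with unadjusted p-values of 0.00259 and 0.00435 and adjusted p-values of 0.313 and 0.782 by edgeR. Between the EV-treated groups the log2 fold change of Usp18 was 0.22 (SE 0.42) with all libraries and -0.14 (SE 0.22) without those 2.

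The activating enzyme, Uba7, had 67.8, 89.7 and 89.5 CPM in PBS mice, 49.9, 115 and 103 CPM with EnzR EVs, and 121, 122 and 128 CPM with EnzR EVs + HDL NPs. Relative to its mean, it was the least variable member within the HDL NP group (124 ± 3.61 CPM, an SD of 2.91% of the mean), which lay wholly above both other groups. Counting error alone gave the lowest HDL NP library of Uba7 (116 to 127 CPM) and EnzR EV replicate 2 (111 to 120 CPM) overlapping intervals. The conjugating enzyme, Ube2l6, had 38.2, 27.4 and 24.6 CPM in PBS mice, 38.4, 31.7 and 45.3 CPM with EnzR EVs, and 28.2, 30.4 and 28.5 CPM with EnzR EVs + HDL NPs. Here the order was the opposite one: each HDL NP library lay below each EnzR EV library, and within the span of PBS. Again the nearest libraries had overlapping counting intervals, 27.8 to 33.2 CPM in HDL NP replicate 2 and 29.2 to 34.4 CPM in EnzR EV replicate 2. For EnzR EVs + HDL NPs against EnzR EVs, the log2 fold change was 0.45 (SE 0.26) for Uba7 and -0.40 (SE 0.21) for Ube2l6, with edgeR adjusted p-values of 0.490 and 0.467. Leaving out the 2 smallest libraries gave 0.18 (SE 0.13) for Uba7 and -0.41 (SE 0.17) for Ube2l6 in that comparison; for EnzR EVs against PBS it moved Uba7 from 0.14 to 0.29 and Ube2l6 from 0.36 to 0.57, and Ube2l6 against PBS in the HDL NP group from -0.042 to 0.16.

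Rsad2 encodes viperin, a radical SAM enzyme that converts CTP to a chain terminator of viral RNA synthesis. It was measured at 70.9, 68.3 and 59.2 CPM in PBS mice, at 105, 178 and 144 CPM with EnzR EVs, and at 130.3, 110.5 and 154 CPM with EnzR EVs + HDL NPs. All 6 EV-treated libraries exceeded all 3 PBS libraries, and the lowest of the 6, EnzR EV replicate 1, still had 105 CPM against a PBS maximum of 70.9. Means were 66.2 ± 6.16, 143 ± 36.4 and 131 ± 21.5 CPM (SD, n = 3 each). The log2 fold change against PBS was 1.12 (SE 0.21) for EnzR EVs, a 2.17-fold difference, and 0.99 (SE 0.21) for EnzR EVs + HDL NPs. By edgeR neither passed the adjusted threshold of 0.05: unadjusted p-values were 3.09e-04 and 7.28e-04, and adjusted p-values 0.775 and 1.00. DESeq2 called Rsad2 in both comparisons, with adjusted p-values of 0.00179 and 0.0323, and edgeR called it for EnzR EVs against PBS once the 2 smallest libraries were left out (log2 fold change 1.35, adjusted p = 0.0408). Over all alternatives the adjusted p for EnzR EVs against PBS ranged from 0.00174 to 1.00, with a log2 fold change between 0.95 and 1.35.

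Cmpk2, the neighbor of Rsad2, encodes a mitochondrial nucleotide kinase that supplies CTP among other products. Its CPM was 165, 153 and 136 in PBS mice, 169.6, 226 and 234 with EnzR EVs, and 201, 186 and 226 with EnzR EVs + HDL NPs. Again the 6 EV-treated libraries lay above the 3 PBS libraries, although EnzR EV replicate 1 (169.6) was close to PBS replicate 1 (165). Counting error alone gave these libraries overlapping intervals (151 to 190 and 154 to 176 CPM). The log2 fold change was 0.48 (SE 0.17) for EnzR EVs and 0.43 (SE 0.17) for EnzR EVs + HDL NPs, with unadjusted p-values of 0.0189 and 0.0286 by edgeR. For Cmpk2 without the 2 smallest libraries they were 0.68 (SE 0.16) and 0.50 (SE 0.14). With both EnzR EV groups against PBS (6 libraries against 3), Rsad2 had a log2 fold change of 1.05 (SE 0.19) and Cmpk2 one of 0.45 (SE 0.15). A two-sided exact permutation test of that contrast gave p = 0.0238 for each gene, the smallest p that 6 against 3 allows and not adjusted for the 10 members. Scaled by library size only, edgeR gave that contrast an unadjusted p of 0.0998 for Cmpk2 and 0.00329 for Rsad2.

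Reads on the 2 neighbors can be compared within a library, which removes the scaling between libraries (these pairs were chosen after their values were seen, so the ratios are a description). Rsad2 had 0.431, 0.446 and 0.436 reads per Cmpk2 read in the PBS libraries, 0.621, 0.787 and 0.617 in the EnzR EV libraries, and 0.648, 0.594 and 0.680 in the EnzR EV + HDL NP libraries. The PBS values were close to each other and below all 6 of the others, so Rsad2 was higher relative to its neighbor in every EV-treated mouse. Mx1 had 0.226, 0.291 and 0.331 reads per Rsad2 read in PBS mice, 0.146, 0.133 and 0.110 with EnzR EVs, and 0.305, 0.275 and 0.197 with EnzR EVs + HDL NPs. Here the EnzR EV libraries stood below all of the others, and the HDL NP libraries overlapped PBS.

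**Figure D2:**
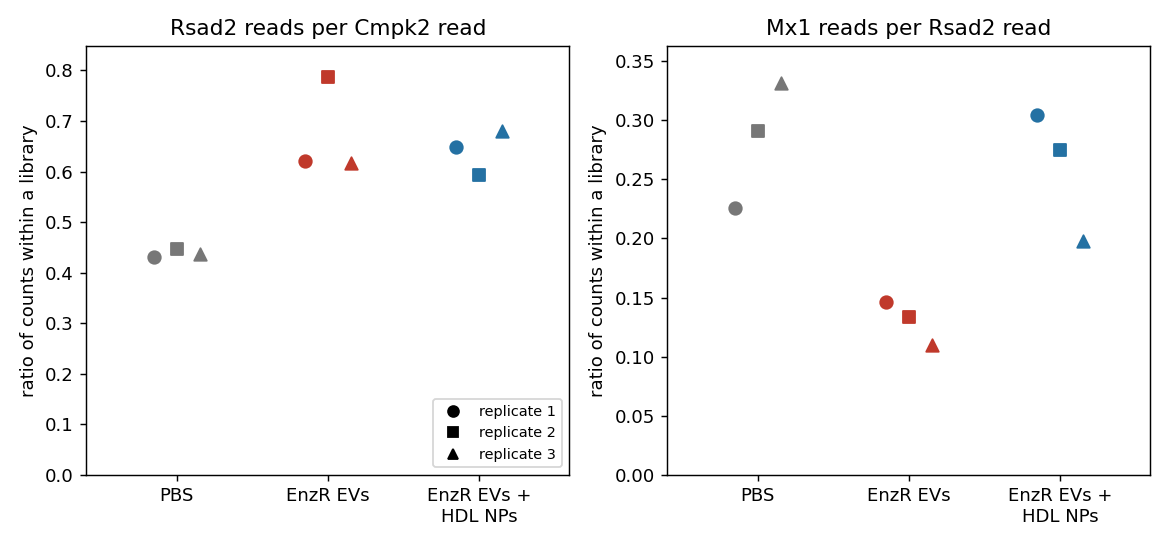
Ratios of raw counts within a library (linear axes from 0), 1 point per mouse, for Rsad2 over Cmpk2 and for Mx1 over Rsad2. The first separates PBS (0.431 to 0.446) from both EV-treated groups (0.594 to 0.787), and the second separates the EnzR EV mice (0.110 to 0.146) from the rest.

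Mx1 and Mx2 encode dynamin-like GTPases that trap viral nucleoproteins. In C57BL/6 and most other laboratory strains both genes carry mutations that abolish the antiviral protein, and the annotation lists Mx2 as a polymorphic pseudogene, so their transcripts are read here as interferon-stimulated RNAs only. Mx1 was at 16.0, 19.9 and 19.6 CPM in PBS mice, at 15.4, 23.7 and 15.8 CPM with EnzR EVs, and at 39.7, 30.3 and 30.3 CPM with EnzR EVs + HDL NPs. Means of 18.5 ± 2.17 and 18.3 ± 4.70 CPM in the first 2 groups were followed by 33.4 ± 5.40 CPM in the HDL NP group, all 3 of whose libraries stood above the other 6. EnzR EVs against PBS gave a log2 fold change of 0.0084 with a 95% interval from -0.49 to 0.50 by edgeR, which excludes a doubling in that fit but not smaller differences. The other comparisons gave 0.85 (SE 0.22) for EnzR EVs + HDL NPs against PBS and 0.84 (SE 0.22) against EnzR EVs, with unadjusted p-values of 0.00274 and 0.00333 by edgeR and adjusted p-values of 1.00 and 0.461.

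Mx2 was at 2.99, 5.29 and 4.92 CPM in PBS mice, 0.549, 5.64 and 3.31 CPM with EnzR EVs, and 9.63, 6.80 and 7.82 CPM with EnzR EVs + HDL NPs. The value of 0.549 CPM rests on 1 read in the smallest library, under the floor of 3 counts. Even so, the HDL NP libraries lay above the other 6 for Mx2 as for Mx1. For Mx2 the counting interval of HDL NP replicate 2 was 5.61 to 8.16 CPM. It overlapped those of EnzR EV replicate 2 (4.62 to 6.82 CPM) and PBS replicate 2 (4.27 to 6.49 CPM). Mx2 had a log2 fold change of 0.84 (SE 0.41) against PBS and 1.08 (SE 0.43) against EnzR EVs, with unadjusted p-values of 0.0688 and 0.0305 and adjusted p-values of 1.00 and 0.461 by edgeR. Without the 2 smallest libraries these were 0.66 (SE 0.27) and 0.80 (SE 0.28) for Mx2, and 0.76 (SE 0.20) and 0.74 (SE 0.20) for Mx1.

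Bst2 encodes tetherin, which holds budding virions at the cell surface and also marks plasmacytoid dendritic cells and plasma cells. It was at 12.8, 11.0 and 10.0 CPM in PBS mice, at 19.8, 17.3 and 19.0 CPM with EnzR EVs, and at 17.8, 11.1 and 12.9 CPM with EnzR EVs + HDL NPs. The EnzR EV libraries lay above all PBS libraries, and the HDL NP libraries overlapped both groups. The log2 fold change against PBS was 0.73 (SE 0.23) for EnzR EVs, with an unadjusted p of 0.00861 by edgeR, and 0.31 (SE 0.22) for EnzR EVs + HDL NPs. Summed over 7 plasmacytoid dendritic cell genes, a list without Bst2, the level was 40.5 CPM in PBS replicate 1, 60.4 CPM in EnzR EV replicate 1 and 19.6 to 30.0 CPM in the other 7 libraries. Most of that sum was Tcf4 (17.5 to 49.9 CPM), while Siglech, a defining marker, was at 0.210 to 2.82 CPM. The part of these cells in the Bst2 values was not tested. The summed B and plasma cell genes were at 14.4 to 19.6 CPM in PBS, 8.16 to 20.3 CPM with EnzR EVs and 7.19 to 18.5 CPM with EnzR EVs + HDL NPs. The summed NK and T cell genes were at 33.6 to 49.5, 42.1 to 76.8 and 20.6 to 39.7 CPM in that order. As for Ube2l6, the EV-treated groups did not overlap in that sum. Nkg7 made up most of it (35.7 to 66.9 CPM with EnzR EVs, 16.4 to 29.4 CPM with EnzR EVs + HDL NPs). Ncr1 (2.25 to 3.84 against 1.49 to 6.36 CPM) and Klrb1c (1.30 to 3.84 against 1.96 to 3.66 CPM) overlapped between these groups. The part of NK and T cells in the member values was not tested. In bulk RNA of this kind, fewer cells of a type and less RNA per cell cannot be told apart.

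Isg20, a 3′ to 5′ exonuclease that degrades single-stranded RNA, was at 3.70, 9.95 and 10.5 CPM in PBS mice, at 1.65, 14.8 and 9.46 CPM with EnzR EVs, and at 11.7, 12.7 and 11.9 CPM with EnzR EVs + HDL NPs. Its lowest values, 1.65 and 3.70 CPM, were those of the 2 smallest libraries, and the former rests on 3 reads. The log2 fold changes against PBS were 0.23 (SE 0.49) and 0.54 (SE 0.48), with unadjusted p-values of 0.650 and 0.287 by edgeR. Leaving out the 2 smallest libraries gave 0.27 (SE 0.23) and 0.24 (SE 0.21), and moved Isg20 between the EV-treated groups from 0.31 (SE 0.49) to -0.034 (SE 0.21).

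Comparing EnzR EVs with PBS asked what EVs from resistant cancer cells do to marrow myeloid cells. In that comparison 9 of the 10 members had a positive log2 fold change and Mx2 a negative one (median 0.42, against -0.027 over all 12553 tested genes, of which 46.5% were positive). By edgeR with adjusted p-values 0 members and 0% of all tested genes were called, in either direction. The absence of a call does not show that no member differed. At an unadjusted p under 0.05, Isg15, Rsad2, Cmpk2 and Bst2 were higher (4 of 10, against 1.55% of all tested genes) and 0 were lower. That count was 2 without PBS replicate 3 (against 0.535%) and 2 without EnzR EV replicate 3 (against 1.31%). With the replicate number as a block, edgeR called 1 gene and 0 members, and 4 members had such a p, against 2.87% of all tested genes. DESeq2 called 1 member, Rsad2, where 0.0213% of the genes it tested were called as higher, limma's voom called 0, and voom with sample quality weights called 5, where it called 15.9% of all tested genes (1990, of which 1088 were higher). Rsad2, Cmpk2 and Bst2 had groups that did not overlap (3 of 10, against 3.43% of all tested genes that lay higher in this way). Without the 2 smallest libraries 7 of 10 members were apart and higher, where 21.5% of all genes were, with 2 libraries left in each group, and the member median was 0.62.

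EnzR EVs + HDL NPs against PBS asked whether conditioning by the EVs persisted under HDL NPs. A positive log2 fold change was found for 9 of 10 members, Ube2l6 being the exception (median 0.69, against -0.0072 over all tested genes, 48.9% of them positive). Adjusted p-values by edgeR again called 0 members and 0% of all tested genes. At an unadjusted p under 0.05, Usp18, Uba7, Rsad2, Cmpk2 and Mx1 were higher (5 of 10, against 1.02% of all tested genes) and 0 lower. The count fell to 2 without PBS replicate 3 or without EnzR EV + HDL NP replicate 3 (against 0.842% and 0.546%), and to 3 without PBS replicate 2, EnzR EV replicate 3 or EnzR EV + HDL NP replicate 1 (against 0.758% to 0.803%). DESeq2 called Rsad2 alone, with 0.0431% of its tested genes called as higher, voom called 0 and voom with quality weights called 1, where it called 10 genes in all. The groups did not overlap for Usp18, Uba7, Rsad2, Cmpk2, Mx1, Mx2 and Isg20 (7 of 10, against 6.96% of all tested genes). Both comparisons share the PBS libraries, 1 of which was small. Without the 2 smallest libraries the member median was 0.58, below that of EnzR EVs against PBS (0.62), and with voom quality weights it was 0.55 against 0.61, so the order of the 2 medians turned under both settings.

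**Figure D3:**
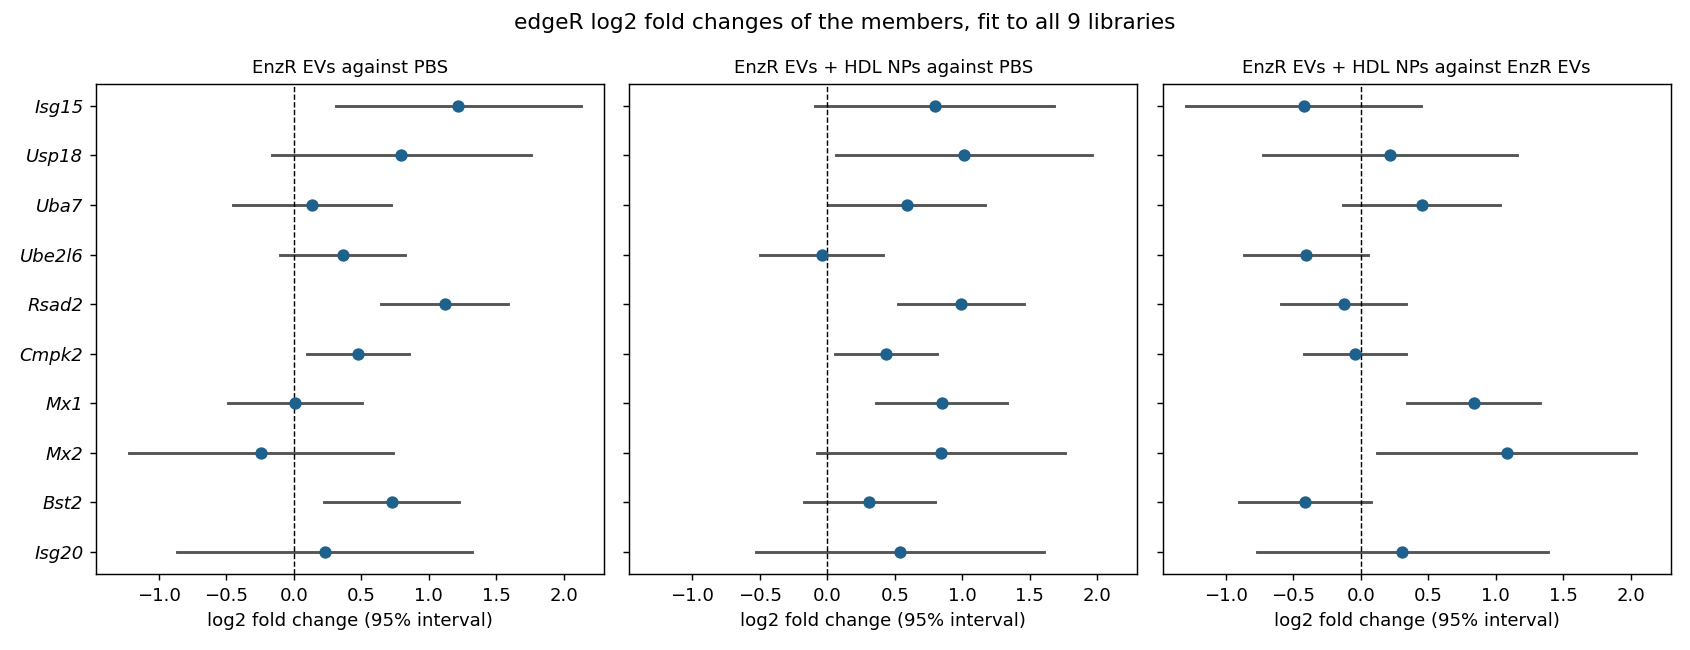
Points give edgeR log2 fold changes of the 10 members and lines their 95% intervals, in 3 panels for the 3 pairs of groups; the dashed line marks no difference. Rsad2 has intervals above 0 against PBS in both EV-treated groups (estimates 1.12 and 0.99), and Mx1 and Mx2 have them above 0 for EnzR EVs + HDL NPs against EnzR EVs (0.84 and 1.08).

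The comparison of the EV-treated groups asked what HDL NPs changed in mice that received EnzR EVs. Of the members, 5 had a positive and 5 a negative log2 fold change (median 0.089, against 0.033 over all tested genes, 52.8% of them positive). With adjusted p-values edgeR called 0 members and 0% of all tested genes, and DESeq2 also called 0 members and 0% of its tested genes as higher. Mx1 and Mx2 were higher at an unadjusted p under 0.05 (2 of 10, against 3.58% of all tested genes), and 0 were lower. The count of higher members was 1 without EnzR EV replicate 3, EnzR EV + HDL NP replicate 1 or EnzR EV + HDL NP replicate 3 (against 1.39%, 2.53% and 1.47%). Voom called 0 members, and voom with quality weights called Mx1 and Mx2 (adjusted p = 0.0474 and 0.0489), where it called 5.20% of all tested genes. At an unadjusted p under 0.05 in that weighted fit, Isg15, Ube2l6 and Bst2 were lower (3 of 10, against 1944 of all 12553 tested genes). Mx1 and Mx2 were higher at such a p (2 of 10, against 15.5% of all tested genes). With the replicate block in edgeR, Uba7, Mx1 and Mx2 were higher and Bst2 lower at such a p. Of all 12553 tested genes, 8.77% were then higher and 1185 were lower. With the 2 smallest libraries left out, the median of the members turned to -0.16, with 3 of 10 positive. All HDL NP libraries exceeded all EnzR EV libraries for Uba7, Mx1 and Mx2 (3 of 10, against 8.99% of all tested genes), and they lay below them for Ube2l6 (1 of 10, against 8.58%). Intervals for Rsad2 (-0.59 to 0.34) and Cmpk2 (-0.42 to 0.34) were centered near 0, which leaves room for a difference of either sign.

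When the 6 EV-treated libraries were set against the 3 PBS libraries, all 10 members had positive log2 fold changes (median 0.44, against -0.010 over all tested genes, 47.6% positive). EdgeR's adjusted p-values called 0 members and 0% of genes, and voom called 0 members. The unadjusted p was under 0.05 for Isg15, Usp18, Rsad2, Cmpk2, Mx1 and Bst2 (6 of 10, against 0.765%), and DESeq2 called Rsad2 (adjusted p = 2.20e-04, with 0.0473% of its tested genes called as higher). The count of 6 became 1 without PBS replicate 3 (against 0.441%) and 3 without PBS replicate 2 (against 0.440%). Rsad2 and Cmpk2 had no overlap between the groups (2 of 10, against 0.701% of all tested genes). In two-sided exact permutation tests of the same contrast, not adjusted over members, Bst2 gave p = 0.0476 and Isg15 p = 0.0952, and the remaining 6 members gave p-values from 0.214 to 0.786.

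Levels can be compared between genes per kb of annotated exon; all exons of GENCODE were counted, which lowers the value of genes with many annotated isoforms such as Uba7. In PBS mice, Cmpk2 had the highest level, with a mean of 36.3 CPM per kb (32.6 to 39.6). Rsad2 (15.3 CPM per kb), Ube2l6 (15.1), Bst2 (12.5), Uba7 (12.3) and Isg15 (10.3) formed an intermediate group in which each gene's range over the 3 mice overlapped that of the next. Usp18 (5.00 CPM per kb), Mx1 (4.89) and Isg20 (4.33) followed, again with overlapping ranges and with that of Usp18 reaching into that of Isg15, and Mx2 was lowest at 1.22 CPM per kb (0.828 to 1.46). With EnzR EVs Rsad2 had a level of 32.9 CPM per kb (24.3 to 41.1), above the whole range of Ube2l6 (15.9 to 22.7), and Isg15 had one of 22.4 (15.2 to 27.7). With EnzR EVs + HDL NPs the level of Mx1 was 8.84 CPM per kb (8.01 to 10.5), overlapping that of Usp18 at 10.3 (8.48 to 11.5).

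The members differed in how they varied from mouse to mouse within a group. With EnzR EVs, the highest library exceeded the lowest 10.3 times for Mx2 (where the lowest rests on 1 read), 8.99 times for Isg20 and 5.50 times for Usp18. In PBS replicate 1 and EnzR EV replicate 1, the libraries with the largest Rn45s shares, Usp18, Uba7, Mx1, Mx2 and Isg20 were each the lowest of their group. Isg15, Ube2l6, Rsad2, Cmpk2 and Bst2 were instead the highest of the PBS group in replicate 1. In EnzR EV replicate 1, however, Isg15, Rsad2 and Cmpk2 were also the lowest of their group (8 of 10 members in all), and Bst2 was the highest. Across the 9 libraries, log2 CPM and the Rn45s share had a Pearson r of -0.872 for Isg20, -0.869 for Mx2, -0.795 for Uba7, -0.775 for Mx1 and -0.732 for Usp18. The r was 0.801 for Ube2l6 and lay between -0.067 and 0.468 for Isg15, Rsad2, Cmpk2 and Bst2. These values describe 9 libraries that also share group and depth, and the part of Rn45s in the group differences was not tested. The summed level of 9 neutrophil genes was 29854 CPM in EnzR EV replicate 1, 53078 in PBS replicate 1 and 64019 in EnzR EV replicate 3, against 77739 to 139152 CPM in the other 6. S100a8 and S100a9 carried that order: summed over the other 7 genes, EnzR EV replicate 1 was lowest at 25879 CPM, while PBS replicate 1 (36948) and EnzR EV replicate 3 (43790) lay among the remaining libraries (35011 to 49482). The summed monocyte genes were at 1236 CPM in EnzR EV replicate 1 and at 1602 to 2433 CPM in the other libraries. The part of the neutrophil and monocyte genes in the member values was likewise not tested. When both of the smallest libraries were left out, all 10 members were apart and higher in EnzR EVs + HDL NPs against PBS (3 libraries against 2), where 10.6% of all genes were.

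**Figure D4:**
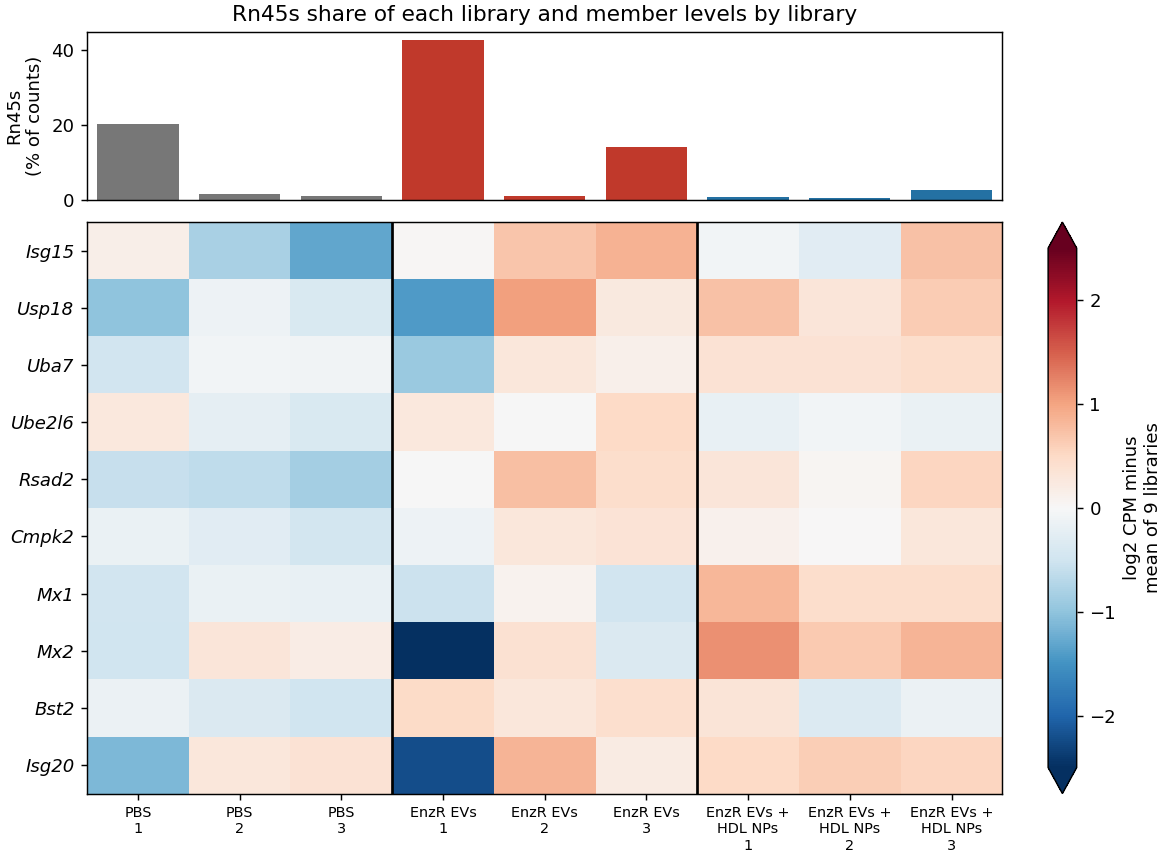
The upper panel gives the Rn45s share of counts in each library (%), and the lower panel the log2 CPM of each member minus its mean over the 9 libraries (color scale). Mx2 and Isg20 are far below their means in EnzR EV replicate 1, which has a Rn45s share of 42.7%, whereas Rsad2 is low in all 3 PBS libraries, at Rn45s shares from 1.17% to 20.3%.

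How closely each member followed the others was described by its r with the mean of the other 9 across libraries. Usp18 (0.958) and Uba7 (0.912) followed it most closely, Cmpk2, Isg20, Rsad2, Mx1 and Mx2 had values between 0.625 and 0.768, and Isg15 (0.385), Bst2 (0.0788) and Ube2l6 (-0.224) followed it least. The members' mean (log2 CPM centered per gene) was lowest in EnzR EV replicate 1, at -0.71. Mx2 and Isg20 had 1 and 3 reads there, and the part of that library in these r values was not tested. The 5 genes outside the members whose log2 CPM was most like the members' mean over the 9 libraries were Herc6 (r = 0.979), Dtx3l (0.969), Rtp4 (0.960), Sgol1 (0.958) and Gbp2 (0.952). Herc6, the ISG15 ligase, was at 20.8, 24.7 and 20.7 CPM in PBS mice, at 17.0, 50.1 and 32.9 CPM with EnzR EVs, and at 50.9, 34.4 and 48.8 CPM with EnzR EVs + HDL NPs.

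Other genes of the ISG15 pathway were taken from a list of 8 (ligases, receptor and signaling partners), all of them tested. EdgeR and DESeq2 called 0 of them in any comparison. Median log2 fold changes were 0.17 for EnzR EVs against PBS and 0.098 for EnzR EVs + HDL NPs against PBS. At an unadjusted p under 0.05 by edgeR, 0 were higher in the former and 2 in the latter, Herc6 (1.02, SE 0.31) and Stat2 (0.72, SE 0.21), and 0 were lower in either (1.55% and 1.02% of all tested genes were higher). Without the 2 smallest libraries 2 of the 8 were higher in each comparison, against 4.22% and 1.51%. Stat2, which binds USP18 at the receptor, was at 38.7, 47.8 and 48.7 CPM in PBS mice and at 83.9, 63.6 and 76.5 CPM with EnzR EVs + HDL NPs, without overlap. With EnzR EVs alone Stat2 was at 36.8, 64.4 and 52.1 CPM, overlapping PBS (log2 fold change 0.20, SE 0.22). Trim25, a ubiquitin and ISG15 ligase, had log2 fold changes against PBS of 0.23 and 0.16, Arih1 of -0.15 and 0.16, Ifnar2 of -0.025 and 0.016, and the integrin chain Itgal of 0.057 and 0.036.

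Of 30 other antiviral effectors, 28 were in the tables and tested, and edgeR and DESeq2 called 0 of them. In EnzR EVs against PBS 24 had a positive log2 fold change (median 0.29) and 2 an unadjusted p under 0.05 by edgeR; 3 had groups apart and higher (7.14% and 10.7%, against 1.55% and 3.43% of all tested genes). In EnzR EVs + HDL NPs against PBS 27 were positive (median 0.64), 12 had such a p and 23 had groups apart and higher (42.9% and 82.1%, against 1.02% and 6.96% of all tested genes), and 0 were lower at such a p in either comparison. Zbp1, a sensor of Z-form nucleic acids, had 0.94 and 1.39, Rtp4, an inhibitor of viral RNA replication, 0.89 and 1.21, and Ifi44 1.28 and 1.21, the latter at 0.352 to 4.10 CPM. The 1.28 of Ifi44 (SE 0.71, unadjusted p = 0.0983 by edgeR) rests on EnzR EV replicate 2. Ifi44 was at 0.352, 1.09 and 0.973 CPM in PBS mice and at 0.549, 4.10 and 0.591 CPM with EnzR EVs. At the other end of the list, Pml, the scaffold of nuclear bodies, had 0.036 and 0.14, Zc3hav1, which binds CpG-rich viral RNA, -0.012 and 0.11, and Shisa5 0.088 and -0.10. Without the 2 smallest libraries, 10 of the 28 had an unadjusted p under 0.05 and were higher in EnzR EVs against PBS, and 19 in EnzR EVs + HDL NPs against PBS, where 4.22% and 1.51% of all tested genes were. The list's medians were then 0.38 and 0.54. With all 9 libraries, the median between the EV-treated groups was 0.33, with 0 genes at an unadjusted p under 0.05, and without the 2 smallest libraries that median was 0.072.

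Housekeeping relatives of the members, such as Uba1 beside Uba7 and Cmpk1 beside Cmpk2, formed a list of 14, all tested. Their median log2 fold changes were -0.14 for EnzR EVs against PBS and 0.031 for EnzR EVs + HDL NPs against PBS, and 0 of them had an unadjusted p under 0.05 in these comparisons. Ube2l3, the ubiquitin counterpart of Ube2l6, had -0.14 and -0.12. Usp7 had 0.15 in both, Urm1 0.27 and -0.17, and Ubb -0.62 and -0.57, the latter at 0 to 1.95 CPM.

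The interferons themselves were close to absent from these libraries. Of 17 ligand genes in the tables, 13 had 0 counts in all 9 libraries, where the floor of 3 counts allows up to 0.160 to 1.65 CPM depending on the library. Ifnb1 had 1 count in total and Ifna13 had 2 counts in total. Ifnk, with 0 to 30 counts per library, and Ifng, with 2 to 18, were tested: Ifnk had log2 fold changes against PBS of -0.98 and -0.13, and Ifng of 0.14 and 0.19, with unadjusted p-values of 0.157 or more by edgeR. The 13 genes at 0 counts were thus not detectable at this depth, Ifnb1 and Ifna13 were under the floor, and 4 further ligands of the list were not analysed here.

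**Figure D5:**
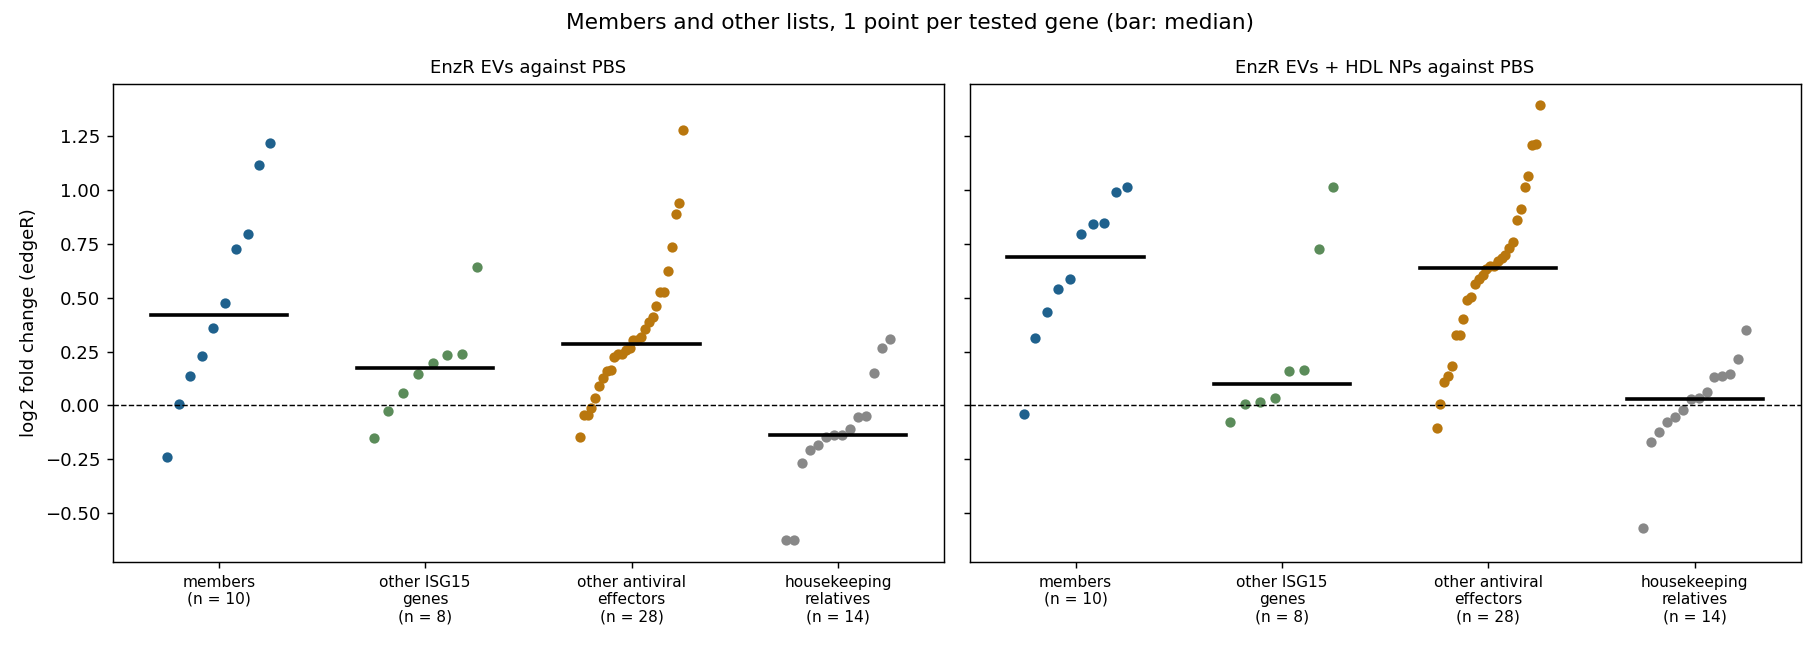
Each point is the edgeR log2 fold change of 1 tested gene and each bar the median of its list, for EnzR EVs against PBS and for EnzR EVs + HDL NPs against PBS, which share the PBS libraries. Medians of the members are 0.42 and 0.69, those of 28 other antiviral effectors 0.29 and 0.64, those of 8 other ISG15 genes 0.17 and 0.098, and those of 14 housekeeping relatives -0.14 and 0.031.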

How the data were processed

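Total RNA (200 ng) of CD11b+ cells was depleted of rRNA, and stranded libraries were sequenced as 75 bp single-end reads. The authors deposited raw counts per gene, 1 table per library, made with cutadapt 1.13, STAR and HTSeq 0.6.1p1 on mm10 with the UCSC annotation; versions of STAR and the counting options are not given in the sources used here. Sources differ on the RNA kit and on the HDL NP concentration. Neither alters which mice form each group, but the HDL NP dose is not settled and is therefore not given here. All counts had a gene name.

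The main test was the one of edgeR 4.0.16, run in R 4.3.3 (TMM, default filter by group, robust quasi-likelihood fit to all 9 libraries, Benjamini-Hochberg over 12553 genes, threshold 0.05). Log2 CPM values had a prior count of 2. DESeq2 1.42.0 and limma 3.58.1 were alternatives, beside other scalings, filters, fits and left-out libraries. Exact permutation tests were two-sided, with a smallest p of 0.10 for 3 against 3. Each library came from 1 mouse, and no batch is named in the labels. The labels do not say what a replicate number shares; the deviations of same-numbered libraries had correlations of 0.131 to 0.492 between PBS and EnzR EVs, all over 0.1, but not between the other groups. PBS replicates 2 and 3, the most similar pair, had a chi-square per gene of 4.48, more than counting noise gives. The fits were tested on simulated counts.

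The members and lists were chosen with earlier results of these data known. Named genes are all members, from each list the 3 highest and 3 lowest log2 fold changes for both EnzR EV groups against PBS, and the 5 genes most like the members' mean; some genes that this rule names are not reported here. Gene positions came from GENCODE M21 and promoter windows from RefSeq, both on GRCm38, the assembly of mm10.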

Additional observations from a re-analysis of the deposited data

How the results depend on the processing

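Under edgeR with TMM, the default filter, all 9 libraries and no replicate block, 0 members and 0 genes passed in any comparison. The comparisons are taken in the order EnzR EVs against PBS (first), EVs with HDL NPs against PBS (second), EVs with HDL NPs against EVs alone (the third) and all EV-treated mice against PBS (last). DESeq2 called 1, 1, 0 and 1 members and 8, 7, 1 and 14 genes. Voom with sample quality weights called 5, 1, 2 and 3 members and 1990, 10, 653 and 86 genes. Leaving out the 2 smallest libraries gave 1, 0, 0 and 1 members and 5, 0, 1 and 5 genes; members apart and higher then numbered 7 in place of 3 in the first comparison, where 21.5% of all genes were, and 7 in place of 2 in the last, where 4.15% were (a setting chosen after seeing the data). No filter on low counts gave 1 gene in the first comparison, and fitting only the groups compared 1 gene in the third. Leaving out each library in turn gave 0 to 2, 0, 0 to 1 and 0 to 1 genes and 0 members; the non-zero counts were without PBS replicate 1.

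Over the alternatives run, the median log2 fold change of the members ranged from 0.27 to 0.62, from 0.55 to 0.76, from -0.16 to 0.35 and from 0.37 to 0.51. With at least 10 counts in every library, Mx2 and Isg20 could not be tested. Scaling by library size only shifted the median of all genes to -0.18 in the first comparison and 0.24 in the third; members higher at an unadjusted p under 0.05 then numbered 2 in each comparison in place of 4, 5, 2 and 6, against 0.430%, 0.749%, 4.90% and 0.406% of all tested genes.

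Signs turned for members near 0; the cause was not tested. For EnzR EVs against PBS, Mx1 had -0.22 with quality weights, -0.14 with library size only, -0.017 without a filter and -0.0060 with the replicate block, and Isg20 had -0.035 with quality weights. For EnzR EVs + HDL NPs against PBS, Ube2l6 had 0.018 with voom, 0.15 with quality weights, 0.027 with library size only and 0.16 without the 2 smallest libraries. For EnzR EVs + HDL NPs against EnzR EVs, library size only gave 0.077 for Rsad2 and 0.17 for Cmpk2, and leaving out the 2 smallest libraries gave -0.14 for Usp18 and -0.034 for Isg20. With each library left out in turn, EnzR EVs against PBS gave -0.23 to 0.11 for Mx1, -0.29 to 0.55 for Isg20, -0.83 to 0.018 for Mx2 and -0.058 to 0.41 for Uba7. Ube2l6 ranged from -0.18 to 0.16 in EnzR EVs + HDL NPs against PBS. EnzR EVs + HDL NPs against EnzR EVs gave -0.14 to 0.77 for Usp18, -0.027 to 0.83 for Isg20, -0.30 to 0.044 for Rsad2 and -0.18 to 0.049 for Cmpk2. Against PBS, Rsad2 remained positive in every alternative run.

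Over the 3 groups, deviations of same-numbered libraries had correlations from -0.175 to 0.492, 6 of 9 over 0.1 (3 of 3 between PBS and EnzR EVs, 1 of 3 and 2 of 3 for the pairs with HDL NPs), and 3 of the 9 libraries matched their own number best in both other groups, so no pairing over all groups was assumed. With the replicate block, 1, 0, 0 and 2 genes and 0 members were called, with member medians of 0.42, 0.74, 0.19 and 0.44. Depth limits Mx2 and Isg20 most, with 1 and 3 reads in the smallest library.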
